A study of Mus musculus with 10 samples.

Results

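The genes described here are 9 members of the Wnt pathway, read in first molar tooth germs of the mouse at the bud stage (embryonic day E13.5) and the cap stage (E14.5). They were taken by their Ensembl gene IDs, from a list made with earlier results of these data known. They are the receptor *Fzd6*, the co-receptors *Lrp5* and *Lrp6*, beta-catenin (*Ctnnb1*), the destruction complex scaffolds *Apc* and *Axin2*, and the transcription factors *Lef1*, *Tcf7* and *Tcf7l2*. All 9 had a row among the 27528 genes of the table, and 0 were removed by a filter. The germs came from NMRI embryos, an outbred laboratory mouse stock, with no mutation or treatment at either stage. Each stage was measured on 5 Affymetrix Mouse Exon 1.0 arrays, each with RNA pooled from 12 to 18 germs. The replicate numbers were 1, 2, 4, 5 and 6 at both stages, and values by array are given below in that order. Nothing in the labels states whether the pools came from separate litters, so p-values measure only the spread between these pools. A pool holds epithelium and mesenchyme together, and a whole-germ signal cannot tell fewer cells of a type from less RNA per cell.

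In canonical Wnt signaling a Wnt ligand binds a frizzled receptor together with an Lrp co-receptor, which halts the complex of Axin, Apc, glycogen synthase kinase and casein kinase that otherwise marks beta-catenin for destruction. Beta-catenin then enters the nucleus and activates genes together with the DNA-binding Lef/Tcf factors. Several components, among them *Axin2*, *Lef1* and *Tcf7*, are themselves transcribed in response to the pathway. In the tooth, Wnt signals pass between epithelium and mesenchyme, and the enamel knot, the signaling center that forms in the epithelium of the cap, expresses several Wnt ligands. The study classes *Ctnnb1* and *Lef1* as genes without which tooth development arrests, *Apc* as a gene that alters tooth shape when lost, and *Fzd6* and *Axin2* as dispensable for the tooth, on the basis of published mouse mutants.

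RefSeq promoter windows (build GRCm38.p6) were at hand for *Lef1*, *Ctnnb1*, *Tcf7*, *Tcf7l2* and *Axin2*, 11 windows in all, and were not at hand for *Lrp5*, *Lrp6*, *Fzd6* and *Apc*. Lef/Tcf factors bind DNA at a core written CTTTGA on one strand and TCAAAG on the other, and the 250 bases before each transcription start were searched for these letters on both strands. They occurred in 4544 of 32851 such windows of all genes (13.8%), and at least 2 matches occurred in 449 (1.37%). Of the 11 windows of the members, 1 held the core. The window of *Axin2* and some of the 4 windows of *Lef1* are shown because both genes are commonly used readouts of the pathway. The internal *Lef1* window shown is the one that held the core, and the *Lef1* windows not shown held 0 matches. The *Axin2* window lies at chr11:108920099-108920348 on the plus strand and has a GC content of 69.2%. It precedes a start 2521 bases inside the gene, so the bases before the gene itself were not searched. The window of the first *Lef1* start lies at chr3:131110047-131110296 (plus strand, GC content 66.4%). The window of an internal *Lef1* start lies at chr3:131156044-131156293 (plus strand, GC content 44.8%). Lower case is used except for matches of the core, which are in capitals.

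Axin2: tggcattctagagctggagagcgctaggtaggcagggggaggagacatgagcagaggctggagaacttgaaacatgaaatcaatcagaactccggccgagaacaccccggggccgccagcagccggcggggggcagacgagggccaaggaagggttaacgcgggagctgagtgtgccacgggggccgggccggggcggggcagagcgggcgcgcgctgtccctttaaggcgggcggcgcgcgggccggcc

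Lef1 first start: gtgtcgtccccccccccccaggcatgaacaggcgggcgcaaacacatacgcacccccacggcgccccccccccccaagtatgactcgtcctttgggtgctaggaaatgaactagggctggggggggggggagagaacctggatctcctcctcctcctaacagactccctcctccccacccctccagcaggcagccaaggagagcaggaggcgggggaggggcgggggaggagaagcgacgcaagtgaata

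Lef1 internal start: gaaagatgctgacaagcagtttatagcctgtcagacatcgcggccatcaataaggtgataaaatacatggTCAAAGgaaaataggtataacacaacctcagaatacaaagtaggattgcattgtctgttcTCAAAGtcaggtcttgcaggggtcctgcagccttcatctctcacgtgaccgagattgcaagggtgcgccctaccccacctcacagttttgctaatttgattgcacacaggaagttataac

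The *Axin2* window, which lies inside the gene, and the window of the first *Lef1* start held 0 matches. The internal *Lef1* window shown held both matches, 180 and 120 bases before the start. A match of these letters is not evidence of binding. The array gives 1 value per gene, so transcripts from the *Lef1* starts cannot be told apart in the values that follow.

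The values are taken as log2 signals, and a change is the E14.5 mean minus the E13.5 mean in those units, ± its SE. Array medians were 5.06 to 5.22, and arrays of the same stage correlated across genes at 0.975 to 0.994. Across genes, the spread of an array (SD) was narrowest for E14.5 replicate 4, at 1.51, and widest for E13.5 replicate 6, at 1.74. Because the signal also depends on how well the probes of a gene bind, the level of a gene is compared between stages only and never with that of another gene.

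From bud to cap, *Fzd6*, *Tcf7* and *Lrp5* rose, by 0.48, 0.47 and 0.29 log2 units, and 0 of the 9 members fell. Thus 3 of 9 members passed an adjusted p of 0.05 (limma, Benjamini-Hochberg over all genes), all higher at E14.5, where 4.36% of all genes passed in that direction, 3.49% in the other and 7.85% in either. Those shares include genes of low signal. Among the 13764 genes with a mean signal above that of the median gene, 2412 passed, 1200 of them upward. The 3 members passed there too. The same 3 genes were the members with every E14.5 array above every E13.5 array, an arrangement shown by 4.82% of all genes. The reverse arrangement was found in 0 members and in 4.01% of all genes, and either in 8.84%. The median change over the 9 members was 0.10, beside a median of -0.01 over all genes, with 6 members higher and 3 lower at the cap stage. Beta-catenin itself and both scaffolds did not pass. Without E13.5 replicate 1, an array that stands apart in values given below, 2 members passed, *Fzd6* and *Tcf7*.

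**Figure D1:**
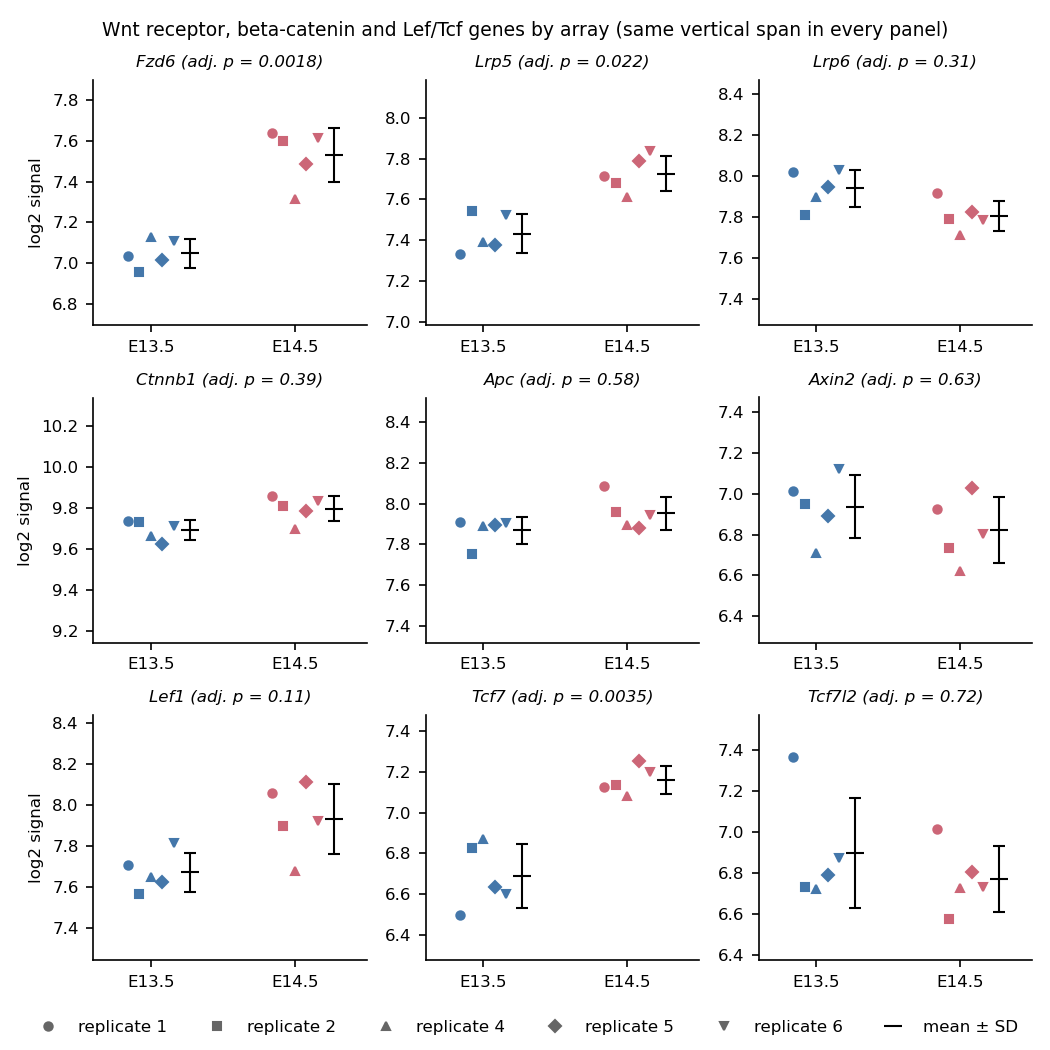
Log2 signal (vertical axis) of the 9 genes on the 5 E13.5 arrays (blue) and the 5 E14.5 arrays (red), with a marker shape for each replicate number and black bars for the mean ± SD of a stage. Every panel spans the same range, so the separation of the stages in *Fzd6* (change 0.48), *Tcf7* (0.47) and *Lrp5* (0.29) can be set against the overlap in *Ctnnb1* (0.10) and *Axin2* (-0.11).

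*Fzd6* (ENSMUSG00000022297, chr15:39006149-39038192), a frizzled receptor best known for its part in planar cell polarity and hair orientation, changed most among the members. Its signals were 7.04, 6.96, 7.13, 7.02 and 7.11 at E13.5 and 7.64, 7.60, 7.32, 7.49 and 7.61 at E14.5. The lowest cap array, replicate 4, was above the highest bud array. The stage means were 7.05 ± 0.07 and 7.53 ± 0.13 (SD, n = 5), a rise of 0.48 ± 0.07, or 1.40-fold with a 95% interval of 1.25 to 1.56 (limma adjusted p = 0.00177). The rise stayed between 0.46 and 0.54 and past the threshold in each of 17 alternative fits.

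Of the 10 frizzled receptors in the table, 3 rose and 0 fell. *Fzd1* rose by 0.57 ± 0.13 (limma adjusted p = 0.0215) and *Fzd5* by 0.53 ± 0.09 (limma adjusted p = 0.0023), a pair of receptors that can both pass the Wnt signal to beta-catenin. The E13.5 array of replicate 1 was low for *Fzd1*, at 7.06 where the other bud arrays read 7.58 to 7.75, and without it the rise was 0.45 (adjusted p = 0.0159). The *Fzd1* call was lost when bud replicate 5 or cap replicate 2, 5 or 6 was left out, with adjusted p up to 0.0646. The other 7 receptors did not pass. Their changes ran from -0.32 for *Fzd4* (adjusted p = 0.234), a receptor known from retinal vessels, to 0.32 for *Fzd7* (adjusted p = 0.268), with *Fzd10* at -0.22, *Fzd3* at -0.08, *Fzd2* at -0.00, *Fzd8* at 0.06 and *Fzd9* at 0.19.

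*Lrp5* (ENSMUSG00000024913, chr19:3584825-3686585), a single-pass co-receptor known for its role in bone mass, read 7.33, 7.54, 7.39, 7.38 and 7.53 at E13.5 and 7.72, 7.68, 7.61, 7.79 and 7.84 at E14.5. The stages did not overlap, and the means of 7.43 ± 0.09 and 7.73 ± 0.09 (SD, n = 5) gave a rise of 0.29 ± 0.07, or 1.23-fold with a 95% interval of 1.10 to 1.36 (limma adjusted p = 0.0223). This call was a narrow one. It was lost when replicate 1, 4 or 5 of the bud stage, or 5 or 6 of the cap stage, was left out, where the change was 0.27 to 0.28 and the adjusted p 0.0501 to 0.0727, and with each array centred on its median (adjusted p = 0.0763).

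*Lrp6* (ENSMUSG00000030201, chr6:134446476-134566913), the close relative of *Lrp5* with the same role at the membrane, did not pass. Its signals were 8.02, 7.81, 7.90, 7.95 and 8.03 at the bud stage and 7.92, 7.79, 7.71, 7.82 and 7.78 at the cap stage. The stages overlapped, with 3 of 5 cap arrays below every bud array, and the change was -0.14 ± 0.07 (limma adjusted p = 0.310). The third gene of the group, *Lrp4*, which binds Wnt inhibitors such as sclerostin and Sostdc1, had the highest change of the receptors and co-receptors, with means of 7.33 ± 0.10 and 8.22 ± 0.17 (SD, n = 5) and a rise of 0.88 ± 0.09 (limma adjusted p = 8.5e-05).

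Whether the co-receptors changed unequally was tested on their difference within each array. The signal of *Lrp5* minus that of *Lrp6* was -0.69, -0.27, -0.51, -0.57 and -0.50 at E13.5 and -0.20, -0.11, -0.10, -0.04 and 0.05 at E14.5. All cap arrays were above all bud arrays, and the difference shifted by 0.43 toward *Lrp5* (two-sided exact permutation p = 0.00794, the smallest that this design allows, 0.0198 after Benjamini-Hochberg over 5 pairs). Without E13.5 replicate 1 the shift was 0.38 (adjusted exact p = 0.0397). Taken between medians in place of means, it was 0.41 and the call was lost (exact permutation p = 0.0476, adjusted 0.0794). An exact p of 0.0476 is the smallest that a difference of medians can give here. It passes after adjustment only if all 5 pairs reach it, so this loss cannot be read as a weaker shift.

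*Ctnnb1* (ENSMUSG00000006932, chr9:120933400-120960507) encodes beta-catenin, which carries the signal to the nucleus and also links cadherins to the cytoskeleton. It read 9.74, 9.73, 9.66, 9.62 and 9.71 at E13.5 and 9.86, 9.81, 9.70, 9.79 and 9.83 at E14.5. Apart from replicate 4 the cap arrays were above every bud array. The means of 9.69 ± 0.05 and 9.80 ± 0.06 (SD, n = 5) differed by 0.10 ± 0.06, which did not pass (limma adjusted p = 0.390). The 95% interval of the fold was 0.98 to 1.17, and array signals carry no information on the stability or location of the protein.

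*Apc* (ENSMUSG00000005871), the tumor suppressor that scaffolds the destruction complex, read 7.91, 7.75, 7.89, 7.90 and 7.90 at the bud stage and 8.08, 7.96, 7.90, 7.88 and 7.95 at the cap stage. The low value of 7.75 on E13.5 replicate 2 stood apart from the other bud arrays, which lay between 7.89 and 7.91. The change was 0.08 ± 0.06 (limma adjusted p = 0.577). It was 0.05 without that array (adjusted p = 0.725) and 0.05 without E14.5 replicate 1 (adjusted p = 0.746).

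*Axin2* (ENSMUSG00000000142, chr11:108917828-108950783), the scaffold whose own transcription is a standard readout of canonical Wnt activity, had a lower mean at the cap stage and did not pass. Its signals were 7.01, 6.95, 6.71, 6.89 and 7.12 at E13.5 and 6.93, 6.73, 6.62, 7.03 and 6.80 at E14.5. The stages overlapped over most of their range, and 0 of 5 cap arrays exceeded the highest bud array. The change was -0.11 ± 0.10 (limma adjusted p = 0.634), with a 95% interval of the fold from 0.80 to 1.07. Its direction was the same in all 17 alternative fits, in which it ran from -0.17 to -0.04 and never passed.

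None of the 7 destruction complex genes passed the test (limma, 0 past an adjusted p of 0.05), and their median change was -0.01. In a group of this size, with 7.85% of all genes past the threshold, a count of 0 does not set the complex apart from other genes. The other 5 were *Axin1* (0.17, adjusted p = 0.384), the constitutive relative of *Axin2*, the kinases *Gsk3a* (0.02), *Gsk3b* (-0.02) and *Csnk1a1* (-0.01), and *Apc2* (-0.07). The change of *Axin2* minus *Apc* within arrays was -0.20, which was not past the threshold (adjusted exact permutation p = 0.119, two-sided). That pair passed only without E14.5 replicate 5, at -0.27 (adjusted exact p = 0.0496).

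Among the transcription factors, *Tcf7* (ENSMUSG00000000782, chr11:52246527-52283383), which encodes the factor also called TCF-1 after its discovery in T cells, rose. It read 6.50, 6.83, 6.87, 6.64 and 6.60 at E13.5 and 7.13, 7.13, 7.08, 7.25 and 7.20 at E14.5. The 5 cap arrays lay close together, above all bud arrays. The means were 6.69 ± 0.16 and 7.16 ± 0.07 (SD, n = 5), a rise of 0.47 ± 0.08, or 1.39-fold with a 95% interval of 1.23 to 1.57 (limma adjusted p = 0.00345). It passed in each of the 17 alternative fits, with a change of 0.42 to 0.52.

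*Lef1* (ENSMUSG00000027985, chr3:131110297-131224357) had a higher mean at E14.5 but did not pass. Its signals were 7.71, 7.57, 7.65, 7.62 and 7.81 at the bud stage and 8.06, 7.90, 7.68, 8.11 and 7.92 at the cap stage. Of the cap arrays, replicate 4 alone fell within the bud range. The means of 7.67 ± 0.09 and 7.93 ± 0.17 (SD, n = 5) differed by 0.26 ± 0.09, or 1.20-fold with a 95% interval of 1.05 to 1.37 (limma adjusted p = 0.111). Without E14.5 replicate 4, which had the narrowest spread of signals over genes, *Lef1* passed with a rise of 0.33 (adjusted p = 0.0258). It also passed after quantile normalization (0.30, adjusted p = 0.0138), with array weights (0.33, adjusted p = 0.0125) and with the spread of each array as a covariate (0.30, adjusted p = 0.00744). Its direction was the same in all 17 alternative fits.

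*Tcf7l2* (ENSMUSG00000024985, chr19:55741797-55933659), known as TCF-4 in the intestine, read 7.37, 6.73, 6.72, 6.79 and 6.87 at E13.5 and 7.02, 6.58, 6.73, 6.80 and 6.73 at E14.5. The first bud array was above all others, and the remaining ranges overlapped. The change of -0.13 ± 0.13 did not pass (limma adjusted p = 0.716) and was -0.01 without E13.5 replicate 1 (adjusted p = 0.984). Replicate 1 was also the highest cap array, and without that cap array alone the change was -0.19 (limma adjusted p = 0.498). The size of the change thus depended on which array of replicate 1 was left out. *Tcf7l1*, which acts mostly as a repressor of Wnt targets, had a change of 0.08 (adjusted p = 0.656), so 1 of 4 Lef/Tcf genes rose and 0 fell.

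The stage shifts of *Lef1* and of *Tcf7* were each set against that of *Tcf7l2* within arrays. *Lef1* minus *Tcf7l2* was 0.34, 0.83, 0.93, 0.83 and 0.94 at E13.5 and 1.04, 1.32, 0.95, 1.31 and 1.19 at E14.5. The stages did not overlap, by a margin of less than the SD of either, and the shift was 0.39 (exact permutation p = 0.00794, adjusted 0.0198, two-sided). *Tcf7* minus *Tcf7l2* was -0.87, 0.10, 0.15, -0.15 and -0.27 at the bud stage and 0.11, 0.56, 0.36, 0.45 and 0.47 at the cap stage, a shift of 0.60 with overlapping stages (exact permutation p = 0.0159, adjusted 0.0265, two-sided). E13.5 replicate 1 was the lowest array in both. Without it the shifts were 0.28 and 0.43, each with an adjusted exact p of 0.0397. The *Tcf7* minus *Tcf7l2* call was lost without E14.5 replicate 2, 4 or 6 (adjusted exact p = 0.0661). Between medians, the shifts were 0.35 for *Lef1* minus *Tcf7l2* and 0.60 for *Tcf7* minus *Tcf7l2*. Both calls were lost (exact permutation p = 0.0476, adjusted 0.0794 for each). As for the co-receptors, 0.0476 is the smallest exact p of a difference of medians here, so these losses cannot be read as weaker shifts. *Lef1* and *Tcf7* were not shown to change unequally, with a shift of -0.21 (adjusted exact p = 0.127, two-sided).

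**Figure D2:**
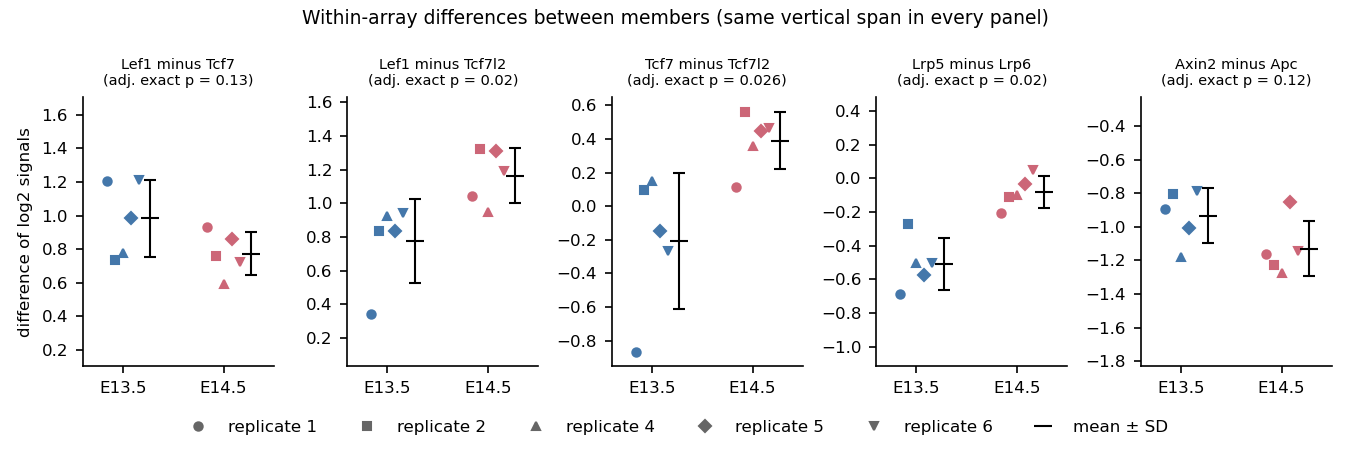
Difference of log2 signals between the genes of each pair on the 5 E13.5 arrays (blue) and 5 E14.5 arrays (red), with marker shapes for replicate numbers, black bars for the mean ± SD and the adjusted exact p above each panel. *Lrp5* minus *Lrp6* and *Lef1* minus *Tcf7l2* do not overlap between stages, and E13.5 replicate 1 is lowest in the panels of *Lef1* minus *Tcf7l2* (0.34) and *Tcf7* minus *Tcf7l2* (-0.87).

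In the 69 Wnt pathway genes tabulated by the study, 17 rose and 3 fell (limma, adjusted p under 0.05), which is 29.0% beside 7.85% of all genes. The 7.85% includes genes of low signal. Among the 13764 genes with a mean signal above that of the median gene, 2412 passed, which is a larger share. Outside the members the counts were 14 up and 3 down of 60, with a median change of 0.10. Among 3 dishevelled genes, 5 other casein kinases and 2 Groucho corepressors, 0 passed, groups too small to set apart from the 7.85% of all genes. The pathway count was 15 without E13.5 replicate 1, 12 without E13.5 replicate 5 and 13 without E14.5 replicate 6.

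**Figure D3:**
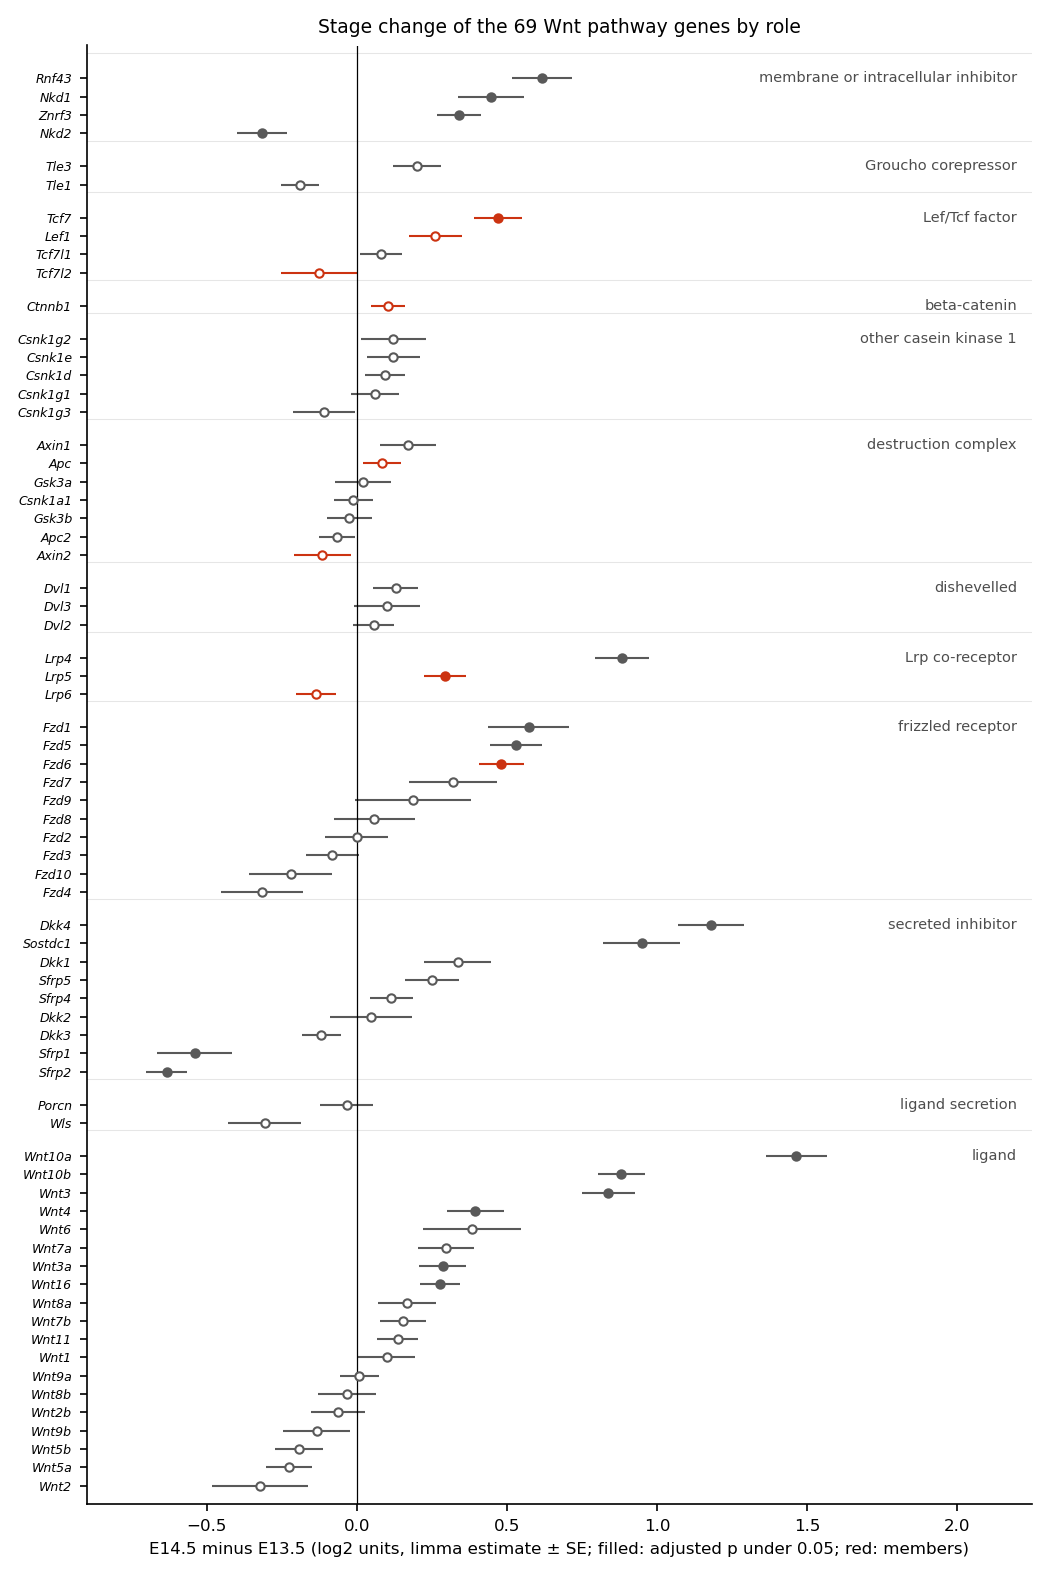
Change from E13.5 to E14.5 in log2 units (horizontal axis, limma estimate ± SE, 5 arrays a stage) of the 69 Wnt pathway genes, grouped by role. Filled points passed an adjusted p of 0.05 and red points are the 9 members, of which *Fzd6*, *Lrp5* and *Tcf7* are filled. Points of the destruction complex lie close to 0, between -0.11 and 0.17, while *Wnt10a* reaches 1.46.

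Of the 19 ligands, 6 rose and 0 fell, where 4.36% of all genes rose and 3.49% fell. *Wnt10a*, needed for normal tooth number and shape, rose by 1.46 ± 0.10 (limma adjusted p = 8.17e-06), *Wnt10b* by 0.88 ± 0.08 and *Wnt3* by 0.84 ± 0.09. Calls on the smaller rises of *Wnt4*, *Wnt16* and *Wnt3a* held in 5, 5 and 2 of the 10 fits that left out 1 array. Both genes for Wnt secretion in the table did not pass. The secreted inhibitors split. *Dkk4*, which blocks Lrp co-receptors, rose by 1.18 ± 0.11, and *Sostdc1*, which binds them, by 0.95 ± 0.13. At E13.5 *Dkk4* read 4.35 to 4.87 and the ligand *Wnt3* 4.59 to 4.98, below the lowest array median of 5.06. *Wnt16* was below that median at both stages, at 4.43 to 4.93. Whether these signals exceeded background could not be examined. *Sfrp2*, which sequesters Wnt ligands, fell by 0.63 on the log2 scale, with all cap arrays (9.01 to 9.19) below all bud arrays (9.66 to 9.89). Of the 9 secreted inhibitors, 2 rose and 2 fell, the other faller being *Sfrp1* (-0.54). All 4 inhibitors at the membrane or in the cell passed, *Rnf43*, *Nkd1* and *Znrf3* upward and *Nkd2* downward (-0.32, limma adjusted p = 0.0423). The *Nkd2* call held in 3 of the 10 fits that left out 1 array (adjusted p up to 0.121 in the others) and was lost with each array centred on its median (adjusted p = 0.101).

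A list of 8 genes that the pathway itself induces in many tissues was read beside *Axin2*. Of these, 5 rose and 0 fell, where 4.36% of all genes rose and 3.49% fell, and the median change was 0.39. The member *Tcf7* was 1 of the 5, and 2 other members in the list, *Axin2* and *Lef1*, were not. *Rnf43* and *Znrf3* encode ubiquitin ligases that remove frizzled receptors from the membrane. *Rnf43* read 6.38, 6.78, 6.63, 6.76 and 6.90 at E13.5 and 7.41, 7.23, 7.17, 7.46 and 7.27 at E14.5, a rise of 0.62 ± 0.10 (limma adjusted p = 0.00241). *Znrf3* rose by 0.34 ± 0.07 (adjusted p = 0.0135), a call lost with each array centred on its median (adjusted p = 0.0599).

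*Nkd1*, an antagonist of dishevelled, was nearly constant at the bud stage, at 6.74 to 6.82, and spread between 6.86 and 7.58 at the cap stage. Its rise of 0.45 ± 0.11 (limma adjusted p = 0.0262) was lost when any 1 of 5 arrays was left out (bud replicates 1, 4 and 5, cap replicates 2 and 6) and with each array centred on its median, with adjusted p up to 0.0686. *Dkk1*, another Lrp-binding inhibitor, had a change of 0.34 and did not pass (adjusted p = 0.103). The list thus holds both genes that rose on every cap array and *Axin2*, whose cap values lay within or below the bud range.

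Genes placed downstream of Wnt or *Lef1* in the tooth also divided. *Fgf4*, an enamel knot signal induced through *Lef1*, rose by 1.59 ± 0.11, and *Eda*, the ectodysplasin ligand of ectodermal organs, by 0.42 ± 0.07 (limma adjusted p = 0.00186). *Fgf20* had a change of 0.92 and did not pass (adjusted p = 0.0549). *Bmp4* fell by 0.56 on the log2 scale (limma adjusted p = 0.000596). Of 3 partners of beta-catenin in adhesion and turnover, *Cdh3* (P-cadherin) rose by 0.83 ± 0.12, while *Ctnna1* (alpha-catenin, 0.19, adjusted p = 0.0883) and *Btrc*, the ubiquitin ligase subunit that recognizes beta-catenin (-0.31, adjusted p = 0.143), did not pass.

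Markers of the tissues in the germ moved with the stages too. Of 5 epithelium markers, *Cdh3* among them, 4 rose and 0 fell, and the mean of the list was 7.38 to 8.08 at E13.5 and 8.44 to 8.70 at E14.5. Of 9 mesenchyme markers, 7 fell and 0 rose, and the mean of that list was 8.11 to 8.29 at E13.5 and 7.33 to 7.44 at E14.5. Both lists separated the stages without overlap. Enamel knot markers rose in 9 of 12 cases with 0 falls, with list means of 5.77 to 6.09 at the bud and 6.79 to 7.12 at the cap stage, and 3 of them, *Wnt10a*, *Wnt10b* and *Dkk4*, are counted above as Wnt genes. Bone and dentin markers rose in 2 of 5 cases (list means 4.62 to 5.04 and 5.25 to 5.63). Their bud means were below the lowest array median of 5.06, and whether those bud signals exceeded background could not be examined. Of 2 endothelium markers, 0 passed (5.63 to 5.96 and 5.58 to 5.77). The part of these differences in tissue markers in the changes of the receptors, Lef/Tcf genes and targets was not tested.

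On E13.5 replicate 1 the epithelium list mean was 7.38, where the other bud arrays lay between 7.91 and 8.08, and the enamel knot list mean was 5.77 against 6.01 to 6.09. The same array had the highest bud value of *Tcf7l2* and the lowest of *Tcf7*, *Lrp5* and *Fzd1*. On E14.5 replicate 4 the epithelium list mean was the lowest of the cap stage, as were the values of *Fzd6*, *Lrp5*, *Lrp6*, *Ctnnb1*, *Axin2*, *Lef1* and *Tcf7*. The part of these list values in the values of the members on the same arrays was not tested.

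**Figure D4:**
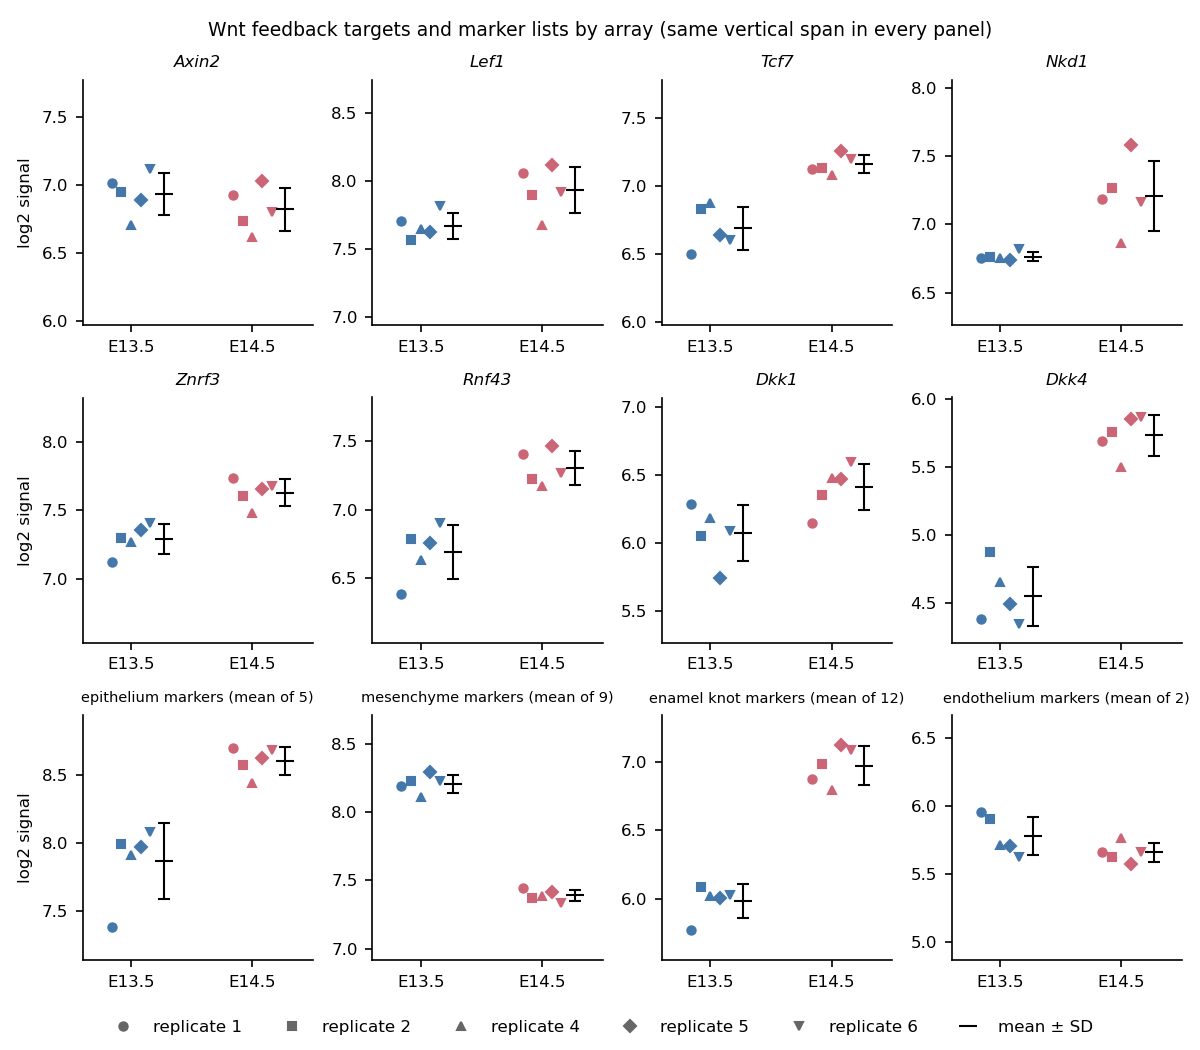
Log2 signal on the 5 E13.5 arrays (blue) and 5 E14.5 arrays (red) of the 8 Wnt feedback targets (upper rows) and of the means of 4 marker lists (bottom row), with marker shapes for replicate numbers and black bars for the mean ± SD. *Axin2* overlaps between stages while *Tcf7*, *Nkd1*, *Znrf3*, *Rnf43* and *Dkk4* do not, and the epithelium and mesenchyme lists separate in opposite directions.

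The genes most like each member that rose were sought among 392 other genes of the study's lists, as the smallest root mean square difference of log2 signals over the 10 arrays after each gene's mean was removed. For *Fzd6* these were *Dab1* (0.0939), *Notch2* (0.103) and *Acvr1* (0.108), where the median of the 392 genes was 0.278. Among the 3 genes nearest to *Lrp5* were *Relb* (0.0667) and *Jak3* (0.0686), beside a median of 0.216. *Tcf7* was nearest to *Hes1* (0.0700), *Relb* (0.0918) and *Wnt4* (0.0941), beside a median of 0.283. All of these named neighbors were higher at E14.5, as a small difference from a member that rose requires.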

How the data were processed

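The authors hybridized RNA from pooled first molar germs to Affymetrix Mouse Exon 1.0 arrays and normalized the signals with aroma.affymetrix and a Brainarray probe grouping (version 23), which summarizes all probes of a gene as 1 set. The deposited values, 1 per gene and array, were read as log2 signals because they run from 1.30 to 12.83. The log base, background correction and summary model are not given in the sources used here. Detection calls, scan dates and scanner files were not used, so signal over background and scan batches could not be examined, and the number of arrays limits the precision.

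Stages were taken from the labels. The stage difference of every gene was fitted by lmFit and eBayes of limma (version 3.58.1, under R 4.3.3) as a two-sided test of the cap minus the bud stage on 10 arrays without covariates, with Benjamini-Hochberg adjustment over 27528 genes and a threshold of 0.05. Differences between members were taken within arrays and tested by exact permutation over all splits of the arrays, adjusted over 5 pairs. Python 3.11.15 with scipy 1.17.1 was used for these. On simulated data with 200 of 27528 genes changed by 1 log2 unit, limma recovered 88.5% with 6 false calls. That change is larger than the change of any member, the largest being 0.48 for *Fzd6*. The simulation thus does not give the recovery of changes as small as those of the members.

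The members and lists were chosen with earlier results of these data known. The 69 Wnt genes and other symbols come from the study's tables, with IDs matched for 393 of 397 genes. Named are the members, the other genes of their role groups, up to 3 genes past the threshold with the largest change in every other Wnt group, the target and adhesion lists, and the 3 genes most like each member that passed. Marker genes were *Trp63*, *Perp*, *Cdh3*, *Edar* and *Foxi3* for epithelium, *Msx1*, *Pax9*, *Barx1*, *Dlx1*, *Dlx2*, *Lhx6*, *Lhx8*, *Pdgfra* and *Runx2* for mesenchyme, *Shh*, *Fgf3*, *Fgf4*, *Fgf9*, *Fgf20*, *Wnt10a*, *Wnt10b*, *Bmp2*, *Bmp7*, *Cdkn1a*, *Msx2* and *Dkk4* for the enamel knot, *Alpl*, *Bglap*, *Dmp1*, *Dspp* and *Spp1* for bone and dentin, and *Dll4* and *Notch4* for endothelium. Some further genes that these lists or rules would take are not reported here, and the epithelium list was summarized without them. Gene coordinates and promoter windows are those of RefSeq on GRCm38.p6, matched by symbol. Alternatives were the replicate number as a block, other normalizations, array weights, another prior, a filter on dim genes, the array spread as a covariate, a stricter threshold and leaving out each array.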

Additional observations from a re-analysis of the deposited data

Results flagged for a closer look

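The highest or lowest array stood apart from the other 4 of its stage in 5 of 44 sets of values examined (gap over range above 0.71), where chance alone gives about 1 in 20. The sets are not independent, so these shares cannot be compared directly. All of the flagged sets but that of *Apc* came from the same array, and *Lef1* minus *Tcf7l2* contains the flagged *Tcf7l2* value. *Tcf7l2* on E13.5 replicate 1 read 7.37, with the other bud arrays at 6.72 to 6.87. *Lef1* minus *Tcf7l2* on the same array was 0.34, with the others at 0.83 to 0.94. The epithelium list mean there was 7.38, with the others at 7.91 to 8.08, and the enamel knot list mean was 5.77, with the others at 6.01 to 6.09. *Apc* on E13.5 replicate 2 read 7.75, with the others at 7.89 to 7.91.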

How the results depend on the processing

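The changes of the members and of the named Wnt genes, the differences between members and the list levels kept their direction under every alternative tried. Of the results that answer a comparison, 265 values stayed on their side of the threshold or within their limits. Another 16 lost the call, 8 gained it and 9 moved. The losses include differences between members taken by medians or sign flips, tests whose smallest p leaves little or no room for a call. The gains include single genes by an exact test without adjustment. These counts therefore do not measure how stable the results are. For single Wnt genes outside the members, 244 values kept the call and 44 lost it, and the calls on *Fzd1*, *Nkd1*, *Nkd2*, *Wnt16*, *Wnt3a* and *Wnt4* were each lost without at least 4 of the 10 arrays in turn. Over all genes, 3911 passed with array weights and 1155 at an adjusted p under 0.01, in place of 2162. The balance of rises and falls over all genes (1201 and 961) turned to more falls without E13.5 replicate 2 (1204 and 1350), with array weights (1939 and 1972) and without dim genes (1200 and 1212), and the median change of all genes, -0.01, was 0.0022 without E13.5 replicate 4 and 0.0043 without E14.5 replicate 1. The Wnt pathway count of 20 became 11 at an adjusted p under 0.01. Leaving out 1 array at a time gave 1479 to 2554 genes, 2 to 4 members and 12 to 22 Wnt pathway genes.

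*Lrp5* lost its call with arrays centred on the median (0.29, adjusted p = 0.0763) and at an adjusted p under 0.01 (0.29), and ran from 0.27 to 0.32 with 1 array left out. *Lef1* gained a call with the array spread as a covariate (0.30, adjusted p = 0.00744), array weights (0.33, adjusted p = 0.0125) and quantile normalization (0.30, adjusted p = 0.0138), and ran from 0.22 to 0.33 with 1 array left out. By the exact permutation test of a single gene, not adjusted, *Lef1* (0.26, p = 0.0238), *Ctnnb1* (0.10, p = 0.0317) and *Lrp6* (-0.14, p = 0.0476) were under 0.05. With medians in place of means, the differences *Lef1* minus *Tcf7l2* (0.35), *Tcf7* minus *Tcf7l2* (0.60) and *Lrp5* minus *Lrp6* (0.41) lost their calls, each with an adjusted exact p of 0.0794. Before adjustment each exact permutation p was 0.0476, the smallest that this test can give, so these losses cannot be read as weaker shifts. With 1 array left out, *Tcf7* minus *Tcf7l2* ran from 0.43 to 0.69 and *Axin2* minus *Apc* from -0.27 to -0.16. As the median over a list in place of the mean, the stage difference was -0.75 for mesenchyme, 1.04 for bone and dentin, 0.75 for the tooth targets and 0.76 for the adhesion partners, where the means gave -0.82, 0.58, 0.59 and 0.24. The cause of these shifts was not tested.

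The replicate numbers were not taken to pair the arrays in the main tests, since the labels give no shared source. Whether arrays of some numbers shared a source was not tested. Deviations of same-numbered arrays from their stage means correlated between -0.08 and 0.51, above 0.1 for 3 of 5 numbers, and 5 of 10 arrays correlated best with their own number. With the replicate number as a block, 2077 genes, 3 members and 18 Wnt pathway genes passed. Sign flips over the 5 numbers, which cannot go below an exact p of 0.0625, gave an adjusted p of 0.104 for *Lef1* minus *Tcf7l2* (0.39), *Tcf7* minus *Tcf7l2* (0.60) and *Lrp5* minus *Lrp6* (0.43).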
